A study of Mus musculus with 12 samples.

Results

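Poly(A) site clusters that overlap a cluster of the opposite strand are places where the listed ends of both strands cover some of the same bases. They were taken from a catalogue of poly(A) sites of mouse embryonic stem cells as all clusters whose interval shared at least 1 nt with a cluster on the other strand of the same chromosome. The catalogue held 145179 clusters, and after the 80 mitochondrial ones were left out, 2218 of 145099 clusters (1.53%) met this rule. They formed 1132 overlapping pairs, with 1109 clusters on each strand. For comparison, 2116 clusters had no overlap but lay 1 to 50 nt from a cluster of the other strand, counted so that abutting clusters are 1 nt apart. The remaining comparisons are with all 142881 clusters without such an overlap, called the other clusters.

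A poly(A) site is where the nascent RNA is cut and a tail of adenosines is added. The cleavage and polyadenylation machinery recognises a hexamer a short way upstream of the cut, AATAAA in its canonical form, together with U-rich and GU-rich sequence downstream of it. Neighbouring genes that point towards each other can end close together or past each other, in which case the ends of the RNAs are complementary. Transcripts of intergenic and antisense origin also end at such sites in stem cells, and many of these are removed by the nuclear RNA exosome.

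The libraries came from V6.5 mouse embryonic stem cells in which Exosc3, a core subunit of that exosome, could be switched off. All 12 libraries carried this conditional allele (Exosc3 CKO), and doxycycline at 0.1 μg/ml kept the gene on. They formed 6 groups of 2: with or without doxycycline for 3 days, and with or without it for 2 days with a U1 or a scrambled (Scr) antisense morpholino (AMO), given at 15 μM 8 hours before collection. The U1 AMO blocks U1 snRNP, which protects nascent transcripts from early polyadenylation. Ends were read by 2P-seq, in which the read starts at the poly(A) tail. The labels speak of clones, and which clone gave which library was not stated. Of the 7 columns analysed, 0 held a value per library, so levels, depth and the effects of doxycycline or AMO were not analysed here, nor could the cells be checked against marker genes. The values below describe one catalogue in mm9 coordinates, with no library replicates behind them. Shares have 95% Wilson intervals, which cover counting error only. Differences were tested across the 19 autosomes, which are not biological replicates. A p-value asks whether the mean of the 19 differences, each autosome counted alike, departs from 0. Autosomes held 34 to 279 overlapping clusters, so counting error enters the SD as well.

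The hexamers that the catalogue listed for these clusters are shown first, because they are the only sequence given for them. A signal on the minus strand reads as its reverse complement on the plus strand, so AATAAA of a minus-strand partner appears as TTTATT. Where in a cluster the listed distances start is not stated in the sources used here, and the order of the facing signals depends on it. Of the 953 pairs with a hexamer on both strands, the plus-strand hexamer lay to the left in 953 if distances are counted from the 5' edges and in 789 (82.8%, interval 80.3 to 85.1%) if they are counted from the 3' edges. Counted from the 5' edges, this order is fixed by the overlap itself and could not come out otherwise. The median separation of the facing hexamers was 69 nt and 27 nt under these readings. Capitals mark the hexamer.
Canonical signal: AATAAA
Canonical signal of a minus-strand partner, read on the plus strand: TTTATT
Main variant: ATTAAA
Main variant of a minus-strand partner, read on the plus strand: TTTAAT
Next most frequent hexamer: TATAAA
Purine-only hexamer: AAGAAA

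Of the 2218 overlapping clusters, 1158 were listed with AATAAA, 290 with ATTAAA, 93 with TATAAA, 86 with AAGAAA, 61 with AGTAAA and 43 with AATACA, and 193 had no hexamer. In all, 34 of the 36 hexamers of the catalogue occurred among them.

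The canonical signal was more frequent in overlapping clusters than elsewhere. AATAAA was listed for 52.2% of them (interval 50.1 to 54.3%), against 44.8% of the other clusters (interval 44.6 to 45.1%). Over the autosomes the means were 52.7% ± 6.01 and 44.8% ± 1.54 (SD, n = 19), a difference of 7.90 percentage points ± 5.87 that was above 0 on 17 of 19 (adjusted p = 0.000135, 2-sided sign-flip permutation test). ATTAAA was lower, with 13.1% against 15.5% (difference -3.06 percentage points ± 2.89, negative on 16 of 19, permutation test, adjusted p = 0.00108). On the plus strand alone this call was lost, at -1.98 percentage points (permutation test, adjusted p = 0.111). Among clusters without AATAAA, however, ATTAAA made up 27.4% of overlapping clusters (interval 24.8 to 30.1%) and 28.0% of the others, and these intervals overlapped.

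The share with any hexamer was 91.3% (interval 90.1 to 92.4%) in overlapping clusters and 89.1% in the others, and over autosomes this difference missed the threshold (2.41 percentage points ± 4.83, SD, n = 19, permutation test, adjusted p = 0.0869). It passed when the other clusters were weighted to the widths of the overlapping ones (3.97 percentage points ± 4.78, above 0 on 17 of 19, permutation test, adjusted p = 0.00846), but not with chromosome X added to the autosomes (3.23 percentage points, permutation test, adjusted p = 0.0513). AATAAA left aside, hexamers in which at least 5 bases are A, of the kind also found where oligo-dT primes inside A-rich sequence, accounted for 9.14% of listed hexamers in overlapping clusters and 9.63% in the others. That difference was -0.817 percentage points ± 4.04 (SD, n = 19) and did not pass the test (permutation test, adjusted p = 0.442). AATAAA was counted among the listed hexamers, at 57.2% of them in overlapping clusters and 50.3% in the others. A higher AATAAA share lowers that of every remaining class. The A-rich share among hexamers other than AATAAA was not computed, so these values do not show whether it differed.

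Listed distances, with their point of origin in the cluster unknown, had the same median for AATAAA within and outside overlaps. It was 21 nt (quartiles 19 and 25 nt) in both overlapping and other clusters. Of the hexamers listed for overlapping clusters, 75.1% lay at 15 to 30 nt (interval 73.2 to 76.9%), against 72.2% in the others, a difference over autosomes of 2.91 percentage points ± 4.29 (SD, n = 19, above 0 on 16 of 19, permutation test, adjusted p = 0.0224). This call was lost when overlaps of at least 5 nt were required (permutation test, adjusted p = 0.269). AATAAA at exactly 11 nt was listed for 15 of 1158 AATAAA clusters with an overlap (1.30%, interval 0.787 to 2.13%) and for 2394 of 64064 without (3.74%, interval 3.59 to 3.89%). It stood at 2.82% (interval 1.95 to 4.08%) in clusters 1 to 50 nt from the other strand, and these shares were not tested.

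The overlapping clusters were wide, which the rule favours, since a wide interval meets another more easily. Their median width was 20 nt (quartiles 9 and 36 nt), against 10 nt (quartiles 3 and 21 nt) in the others. Of clusters 1 nt wide 0.522% were overlapping, of those over 50 nt 4.69%. The higher share of AATAAA was present at every width. It was 47.9% against 35.9% in clusters 1 nt wide, 51.03% against 45.8% at 2 to 10 nt, 55.7% against 50.2% at 11 to 20 nt, 55.2% against 45.4% at 21 to 50 nt and 43.9% against 34.3% above 50 nt. With the other clusters weighted to the same widths the difference was 8.22 percentage points ± 5.83 (SD, n = 19, above 0 on 17 of 19, permutation test, adjusted p = 0.000135).

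**Figure D1:**
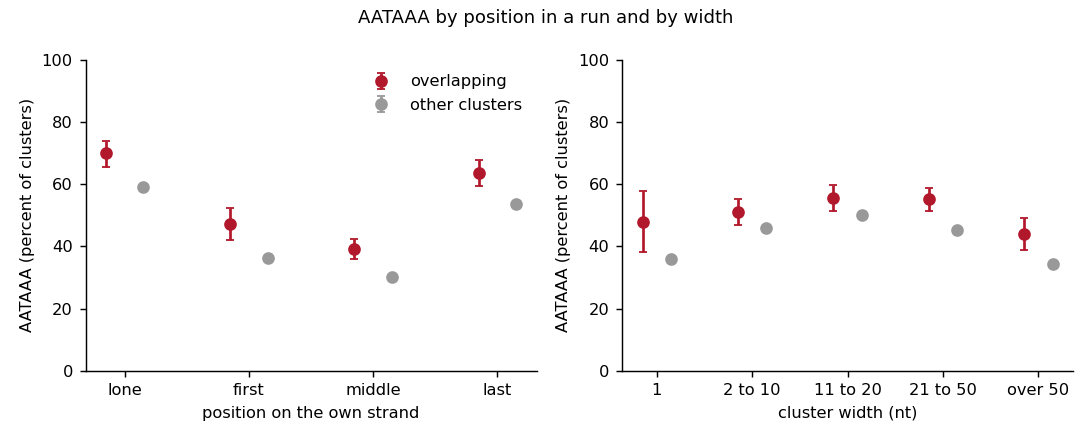
Share of clusters listed with AATAAA (percent, with 95% Wilson intervals) in overlapping clusters (red) and other clusters (grey), by position on their own strand (left) and by cluster width in nt (right). The red points lie above the grey ones in all 4 positions and all 5 width classes, with 70.0% against 59.2% in lone clusters.

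Overlapping clusters stood in crowded places of their own strand as well, which the rule did not use. Another cluster of the same strand lay within 1 kb of 69.0% of them (interval 67.1 to 70.9%), against 57.7% of the others, a difference over autosomes of 11.1 percentage points ± 6.03 that was positive on 19 of 19 (permutation test, adjusted p = 9e-05). The nearest cluster of their strand lay at a median of 248 nt, against 586 nt. Clusters 1 to 50 nt from the other strand had such a neighbour in 67.2% (interval 65.1 to 69.1%), and the difference from them was not tested. When clusters of a strand were joined into runs at gaps of at most 2 kb, 43.0% of overlapping clusters were the most downstream of a run or stood alone, against 50.4% of the others (difference -7.89 percentage points ± 5.75, negative on 18 of 19, permutation test, adjusted p = 9e-05). Lone clusters made up 20.6% of them and middle clusters of runs 40.9%, against 32.8% and 32.0% of the others. The last of a run was more frequent among them, at 22.4% against 17.5%, so the lower combined share came from lone clusters.

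Lone and last clusters carry AATAAA more often than others in this catalogue, so overlapping clusters had more AATAAA although fewer of them held such positions. Within each position the share was higher. It was 70.0% against 59.2% in lone clusters, 47.2% against 36.2% in the first of a run, 39.0% against 30.04% in the middle and 63.6% against 53.7% in the last. The excess over other clusters was 10.5 percentage points ± 12.6 in lone clusters and 10.3 ± 6.19 in runs (SD over 19 autosomes). Their difference was 0.235 percentage points ± 13.0 (permutation test, adjusted p = 0.937), and this spread leaves room for a difference in either direction.

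Nearness to the other strand did not go with the same share of AATAAA when the intervals did not meet. Clusters 1 to 50 nt from the other strand had AATAAA in 45.2% (interval 43.1 to 47.3%), and over autosomes overlapping clusters exceeded them by 8.12 percentage points ± 9.64 (SD, n = 19, above 0 on 16 of 19, permutation test, adjusted p = 0.00225). With plus-strand clusters alone this difference was 4.30 percentage points (permutation test, adjusted p = 0.139). These near clusters had some hexamer in 90.4%, and the difference of 1.30 percentage points ± 4.54 did not pass the test (permutation test, adjusted p = 0.286). They were lone or last in 46.0%, and the difference of -3.06 percentage points ± 6.82 did not pass either (permutation test, adjusted p = 0.12), although it reached -7.66 (permutation test, adjusted p = 0.00414) for overlaps of at least 10 nt. Near clusters were narrower than overlapping ones, with a median of 12 nt, and 67.2% had a neighbour on their own strand within 1 kb.

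Both partners of a pair usually had a signal. A hexamer was listed for both in 953 of 1132 pairs (84.2%, interval 81.9 to 86.2%), for 1 in 154 pairs and for neither in 25 pairs. Of all clusters 89.2% had a hexamer, and the share of pairs which that alone would give was not computed. AATAAA was listed for both partners in 284 pairs (25.1%, interval 22.7 to 27.7%), for 1 in 611 pairs (54.0%, interval 51.1 to 56.9%) and for neither in 237 pairs (20.9%, interval 18.7 to 23.4%). Both partners had AATAAA at 15 to 30 nt in 196 pairs (17.3%). The next most frequent combinations were AATAAA facing ATTAAA, with the canonical signal on the plus strand in 90 pairs and on the minus strand in 89, while ATTAAA faced ATTAAA in 15 pairs.

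Partners were not found to share the canonical signal. The shares by partner below enter each pair from both sides, so their intervals treat mirrored entries as independent and are too narrow. Clusters whose partner had AATAAA had it themselves in 48.2% (interval 45.3 to 51.03%) and those whose partner lacked it in 56.3% (interval 53.3 to 59.2%). Over autosomes this difference was -7.89 percentage points ± 18.3 (SD, n = 19), negative on 12 of 19, and did not pass the test (permutation test, adjusted p = 0.124). Without clusters wider than 50 nt it was -13.0 (permutation test, adjusted p = 0.026). The partner's lack of any hexamer went with a lower pooled share, 75.5% (interval 69.2 to 80.9%) against 92.5% (interval 91.3 to 93.6%). The mean over autosomes was 5.65 percentage points ± 17.8 and positive on 7 of 19 (permutation test, adjusted p = 0.267). On an autosome without a pair lacking both hexamers, a cluster beside a hexamer-less partner always has a hexamer. The difference cannot be positive there, which applied to 12 autosomes. Sign count and p-value therefore cannot show whether partners share having a signal. The 25 pairs without any hexamer lay on 8 chromosomes, 6 of them on chromosome 17 and 5 on chromosome 9, and 12 autosomes had none. Their median cluster width was 48.5 nt.

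The position of the partners in their runs went with their signals. Both partners were lone or last in 221 pairs (19.5%, interval 17.3 to 21.9%), and in these AATAAA was listed for 65.8% of partners (interval 61.3 to 70.1%) and for both in 41.6% of pairs (interval 35.3 to 48.2%). In 393 pairs (34.7%) neither was lone or last, and AATAAA was listed for 41.0% of partners (interval 37.6 to 44.4%) and for both in 15.8% of pairs (interval 12.5 to 19.7%). The remaining 518 pairs joined a lone or last cluster with a cluster further upstream in its run. There the lone or last partner had AATAAA in 67.6% (interval 63.4 to 71.5%) and its partner in 41.7% (interval 37.5 to 46.0%). The 69 pairs of lone clusters had AATAAA in 73.9% of partners (interval 66.0 to 80.5%). Pairs of lone or last clusters shared a median of 6 nt and pairs without such a cluster 9 nt. These classes were compared by their intervals and not tested.

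Most overlaps were short. Pairs shared a median of 8 nt, with quartiles at 3 and 15 nt and the 95th percentile at 34 nt, and 467 pairs (41.3%) shared at least 10 nt, 184 at least 20 nt and 21 at least 50 nt. Just inside the limit of the rule, 124 pairs shared 1 nt and 123 shared 2 nt, and just outside it 47 pairs abutted and 40 were 2 nt apart. Of the 124 pairs, 94 had a partner only 1 nt wide, and 30 pairs overlapped by their margins. Of the 123 pairs, 37 overlapped by their margins, so margin overlaps of 1 or 2 nt did not outnumber gaps of that size. AATAAA was listed for 49.4% of partners at 1 to 2 nt of overlap (interval 45.01 to 53.8%), 54.3% at 3 to 5 nt, 51.1% at 6 to 10 nt, 53.7% at 11 to 20 nt and 52.6% above 20 nt (interval 47.3 to 57.9%), with intervals that overlapped. AATAAA on both strands was listed for 23.1% of pairs at 1 to 2 nt (interval 18.3 to 28.7%), 22.8% at 3 to 5 nt, 23.9% at 6 to 10 nt, 26.7% at 11 to 20 nt and 30% above 20 nt (interval 23.6 to 37.3%). These classes were not tested. The difference in AATAAA from the other clusters was 8.60 percentage points with overlaps of at least 5 nt and 10.4 with at least 10 nt.

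A smaller cluster lying inside a larger one was the most frequent arrangement. It was found in 657 pairs (58.0%), of which 330 had the plus-strand cluster inside and 327 the minus-strand cluster. The inner clusters had a median width of 7 nt and the outer ones of 34 nt. Inner clusters had AATAAA in 47.3% (interval 43.5 to 51.2%) and outer ones in 51.8% (interval 47.9 to 55.6%). The other 475 pairs were staggered, 261 with the plus-strand cluster to the left and 214 with it to the right, and 0 pairs had identical intervals. Over all 1116 pairs of unequal width the narrower partner had AATAAA in 51.6% and the wider in 52.1%. Over autosomes the narrower minus the wider was -3.13 percentage points ± 13.1 (SD, n = 19, permutation test, adjusted p = 0.374). It was -8.62 without clusters wider than 50 nt (permutation test, adjusted p = 0.0496) and turned to 1.93 with overlaps of at least 10 nt.

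The order of the 3' edges was fixed by the overlap itself. The 3' edge of a plus-strand cluster is its right edge and that of a minus-strand cluster its left edge, so any overlapping pair has 3' edges that have passed each other. This held for 1132 of 1132 pairs. RNAs that ended at these outer edges would be complementary over the stretch between the edges. Whether such RNAs occurred together in a library could not be seen. That stretch had a median of 20 nt (quartiles 10 and 40 nt) and was at most 20 nt in 577 pairs, over 50 nt in 205, over 100 nt in 55 and over 200 nt in 18. It was 8 nt at the median in staggered pairs with the plus strand to the left and 43 nt in those with the plus strand to the right. This contrast is set by the geometry. With the plus strand to the left the stretch is the overlap itself, and to the right it spans both intervals.

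The rule does not fix which midpoint lies to the left. The plus-strand midpoint lay to the left in 572 pairs and to the right in 536, with 24 pairs equal, a share of 51.6% (interval 48.7 to 54.6%). Over autosomes it was 52.4% ± 5.73 (SD, n = 19), a distance from 50% that did not pass the test (permutation test, adjusted p = 0.133). Without clusters wider than 50 nt the share stood 4.62 percentage points above 50% and passed (permutation test, adjusted p = 0.0496), and with overlaps of at least 10 nt the distance turned to -2.53 and did not pass. AATAAA was listed for 52.7% ± 7.79 of partners in pairs with the plus strand to the left and for 52.2% ± 4.99 in the reverse order (difference 0.489 percentage points ± 6.41, permutation test, adjusted p = 0.793).

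**Figure D2:**
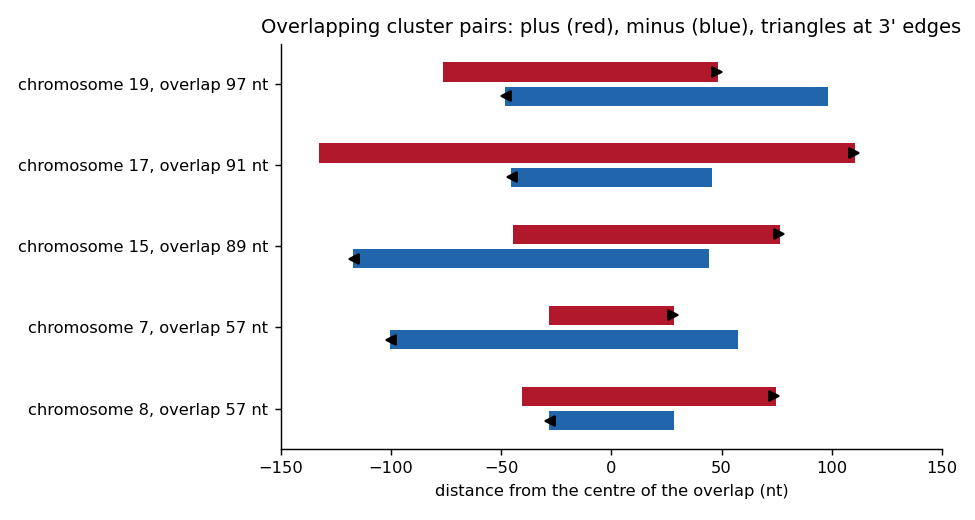
Intervals of the 5 named pairs with long overlaps, drawn to scale in nt from the centre of each overlap, with plus-strand clusters in red, minus-strand clusters in blue and triangles at the 3' edges. In every pair the red triangle lies to the right of the blue one, and the shared stretch runs from 57 to 97 nt.

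The longest overlaps are given with their positions, without gene names, since no mm9 annotation was used. On chromosome 19 a plus-strand cluster at chr19:23209651-23209775, with TATAAA at 25 nt, and a minus-strand cluster at chr19:23209679-23209825, with AAGAAA at 45 nt, shared 97 nt. On chromosome 17 a minus-strand cluster at chr17:24858953-24859043 lay inside a plus-strand cluster at chr17:24858866-24859108, so that 91 nt were shared. Both had AATAAA, at 25 nt on the plus strand and 24 nt on the minus strand, which made it also the longest overlap between canonical sites at 15 to 30 nt. On chromosome 15 the plus-strand cluster at chr15:74917315-74917435, with GATAAA at 8 nt, and the minus-strand cluster at chr15:74917242-74917403, with AATAAA at 34 nt, shared 89 nt. Their 3' edges had passed each other by 194 nt. The next canonical pairs shared 57 nt each. They lay at chr7:112891409-112891465 (plus) inside chr7:112891337-112891494 (minus) and at chr8:86247102-86247158 (minus) inside chr8:86247090-86247204 (plus).

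Few clusters met more than 1 partner. A single partner was found for 2174 clusters, 2 for 42 and 3 for 2. Joined through their overlaps they gave 1086 groups, of which 1049 were plain pairs, 32 held 3 clusters and 5 held more. The largest held 7 clusters on chromosome 9, from the plus-strand cluster at chr9:78374372-78374434 to the minus-strand cluster at chr9:78374895-78374950. Only 2 of the 7 had a hexamer, ATTAAA at 19 nt on the plus strand and AATAAA at 95 nt on the minus strand. The widest overlapping cluster, on the plus strand at chr17:39979973-39983370, was 3398 nt wide without a hexamer. The minus-strand cluster inside it, at chr17:39981443-39981454, was 12 nt wide and also had none. Their 3' edges were 1928 nt past each other, the largest such distance among the 1132 pairs.

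Opposite-strand ends were concentrated at the same place. Over all pairs of opposite-strand clusters, the midpoints lay within 10 nt of each other in 761 pairs, 663 of them overlapping, which is 38.05 pairs per nt. At midpoint offsets of 50 to 150 nt there were 2200 pairs, or 11 per nt. This count does not depend on whether the intervals meet. Partners within 10 nt had AATAAA in 53.4% (interval 50.8 to 55.8%) and those at 50 to 150 nt in 44.8% (interval 43.3 to 46.2%), with median widths of 12 and 15 nt. The ranges of offset were chosen after the counts had been seen, so these values are a description.

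**Figure D3:**
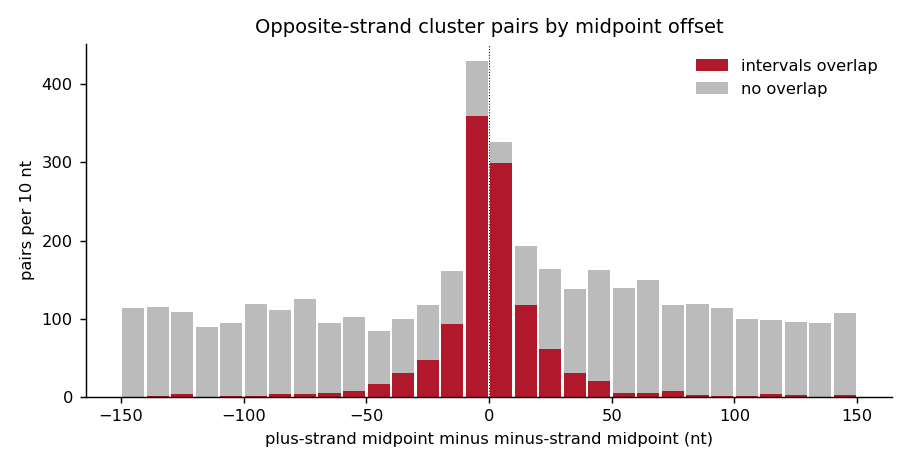
Number of opposite-strand cluster pairs per 10 nt of midpoint offset (plus-strand midpoint minus minus-strand midpoint, in nt), with pairs whose intervals overlap in red and the others stacked in grey. The bins from -10 to 0 and from 0 to 10 nt hold 430 and 326 pairs, while bins beyond 50 nt on either side hold 89 to 149.

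Among narrow clusters the ends were offset to 1 side. Where both partners were at most 10 nt wide, the plus-strand midpoint lay up to 10 nt to the left of the minus-strand midpoint in 103 pairs and up to 10 nt to the right in 43, with 3 equal. At 10 to 20 nt the counts were 19 to the left and 32 to the right. Of these narrow pairs 67 overlapped, 42 with the plus strand to the left and 22 to the right. In that order narrow ends face each other and pass by little or nothing. No test was made, because this limit of width was chosen after the counts had been seen.

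At gaps of 11 to 50 nt the plus-strand cluster lay more often to the right. Pairs whose facing edges were 11 to 50 nt apart had the plus-strand cluster to the left in 356 and to the right in 587, a share of 37.8% (interval 34.7 to 40.9%), or 38.5% ± 7.70 over the autosomes (SD, n = 19) and below 50% on 17 of 19. With the plus strand to the right, RNAs ending in these clusters would have passed each other by more than the gap. At 1 to 10 nt the share was 53.9% (interval 48.6 to 59.1%), and at 201 to 500 nt it was 59.9% (interval 58.6 to 61.3%). The range of 11 to 50 nt was chosen after these counts had been seen and was not tested.

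**Figure D4:**
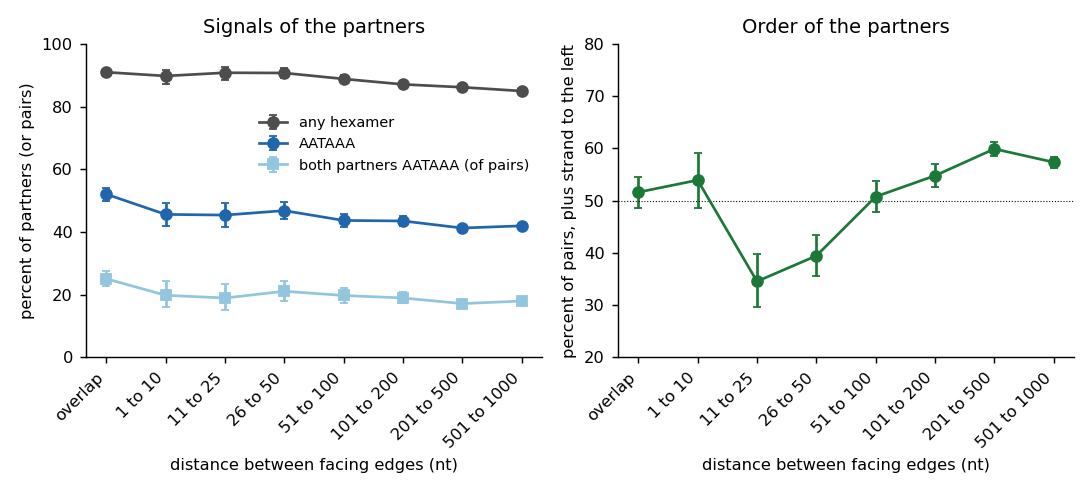
Left, percent of partners with any hexamer (dark grey) or AATAAA (blue) and percent of pairs with AATAAA on both strands (light blue), by the distance in nt between the facing edges. Right, percent of pairs with the plus-strand cluster to the left, with 95% Wilson intervals in both panels. AATAAA stands at 52.1% of partners in overlapping pairs and at 45.6% at 1 to 10 nt, and the order reaches its lowest point, 34.6%, at 11 to 25 nt.

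Overlapping clusters were unevenly spread over the chromosomes. They made up 1.51% ± 0.504 of clusters (SD over 19 autosomes), from 0.751% on chromosome 1 (69 of 9188, interval 0.594 to 0.949%) to 2.50% on chromosome 11 (279 of 11161, interval 2.23 to 2.81%). Chromosomes 8 and 17 followed with 2.42% and 2.28%, while chromosome X had 0.709% (30 of 4231). Across the 19 autosomes this share went with the number of clusters per Mb (Pearson's r = 0.785, Spearman's rho = 0.674). Without the 2 autosomes farthest from the median density r was 0.708. Both quantities are computed from the same clusters, so this is a description. In windows of 1 Mb, 533 of 2556 windows with clusters held an overlapping one, and 35 windows with 10 or more held 458 of them. These 35 were picked by that count, and their share of all clusters was not computed, so density of clusters was not separated out. The fullest window, chr8:86000001-87000000, had 22 among 240 clusters (9.17%).

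**Figure D5:**
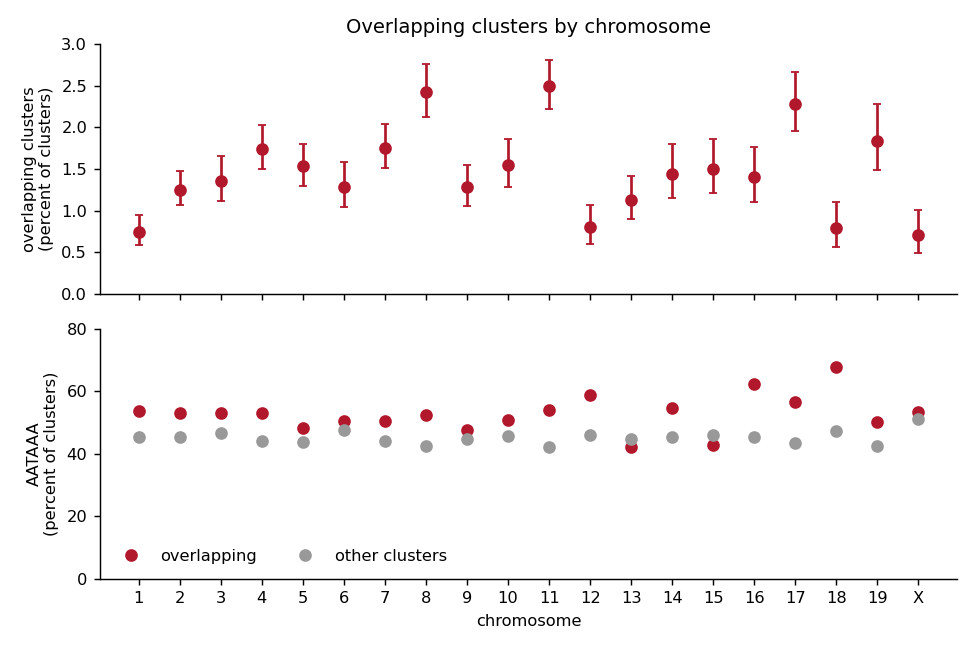
Top, overlapping clusters as a percent of all clusters on each chromosome, with 95% Wilson intervals. Bottom, percent of clusters listed with AATAAA among overlapping (red) and other clusters (grey). Chromosome 11 stands highest in the top panel at 2.50%, and in the bottom panel red lies above grey on 17 of the 19 autosomes, with chromosomes 13 and 15 as exceptions.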

How the data were processed

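Analysed here were cluster positions, strands, hexamers and hexamer distances, all in nt where numeric, in the table the authors deposited for the series, per its file header. Trimmomatic, STAR, bedtools and the mm9 build appear in the submitters' processing notes. The rule that joined reads into clusters, the libraries used and any filter on A-rich priming sites are not given in the sources used here. Without an mm9 genome or annotation, genes are not named and the only sequences printed are the hexamers.

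Starts were read as counted from 0 and are printed counted from 1. Overlaps were computed from these intervals. Each of 18 differences was averaged over the 19 autosomes and tested by flipping the signs of the autosomes at random (2-sided permutation test, 100000 resamples, smallest possible p 1e-05). Benjamini-Hochberg adjustment ran over the 18, with a threshold of 0.05. For width weighting, shares of the other clusters were averaged over 5 width classes with the overlapping clusters' own counts as weights. Named regions were the 3 longest overlaps, the 3 longest between canonical sites at 15 to 30 nt, the largest linked group, the widest cluster and the extreme autosomes, with chromosome 18 left out. Members, measures and tests were chosen with earlier results of these data known. Python (3.11.15) was used with matplotlib (3.10.9), scipy (1.17.1), pandas (2.3.3) and numpy (2.4.6), seed 1, and the scripts were tested on simulated data. Alternatives were other minimum overlaps, limits of width, single strands, 1 pair per linked group, shifted starts, other run gaps, chromosome X and single autosomes left out.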

Additional observations from a re-analysis of the deposited data

Results flagged for a closer look

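Mitochondrial clusters were outside all comparisons above. Of the 80 clusters on the mitochondrial genome, 73 overlapped a cluster of the other strand (91.3%, Wilson interval 83.0 to 95.7%). How many overlaps clusters of that width and density would give was not computed. These were 14 plus-strand clusters and otherwise minus-strand ones, 62 of the 80 being on the minus strand. The median width of the mitochondrial clusters was 66.5 nt.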

How the results depend on the processing

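No paired analysis was possible because the catalogue holds no value per library, so doxycycline, AMO and replicate numbers enter no result. Values are differences in percentage points, averaged over autosomes, and calls use the permutation test adjusted over the tests of each setting. The higher AATAAA share of overlapping against other clusters, with or without weighting to width, the neighbours within 1 kb and the lower share of lone or last clusters kept direction and call under every alternative run.

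The number of overlapping clusters was 915 and that of pairs 467 with overlaps of at least 10 nt. The difference in any hexamer passed the test at 3.16 without clusters wider than 50 nt and at 2.73 with 1 pair per linked group. With single autosomes left out it ranged from 2.15 to 3.22, and it passed the test without chromosome 9 (2.98) or 19 (3.22). Weighted to width it was 3.23 with chromosome X added and no longer passed. The lower share of ATTAAA was -1.98 on the plus strand alone and no longer passed. The share of hexamers at 15 to 30 nt no longer passed at 2.14 and 2.71 with overlaps of at least 5 and 10 nt, 2.29 without clusters 1 nt wide, 1.34 on the minus strand alone and 2.03 with starts 1 nt further right.

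Against clusters 1 to 50 nt away, the difference in AATAAA was 4.30 on the plus strand alone and no longer passed. That in lone or last clusters passed at -5.45 and -7.66 with overlaps of at least 5 and 10 nt and at -5.48 on the plus strand alone. Without clusters wider than 50 nt, 3 pair results passed: AATAAA beside a partner with AATAAA (-13.0), AATAAA in the narrower partner (-8.62) and the share with the plus strand to the left (4.62 above 50%).

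Changes of sign concerned only results that did not pass the test in the main analysis. Among them, the narrower partner's difference and the share with the plus strand to the left had passed without clusters wider than 50 nt. The narrower partner's difference was 1.93 with overlaps of at least 10 nt, and the share with the plus strand to the left was -0.567 and -2.53 from 50% at 5 and 10 nt. AATAAA by order of the partners was -1.09 and -1.06 at 5 and 10 nt, -1.92 without clusters wider than 50 nt, -0.109 and -0.537 with starts 1 nt further left and right, and -0.394 to 1.11 with single autosomes left out. The difference between lone clusters and runs was -4.58 and -7.86 at 5 and 10 nt, -0.236 without clusters wider than 50 nt, -1.34 without those 1 nt wide, -1.35 on the plus strand alone, -0.618 with 1 pair per linked group, -1.08 with starts 1 nt further right, -1.76 with runs joined at 5 kb, and -1.14 to 1.28 with single autosomes left out. The cause of these changes was not tested.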
